A study of Mus musculus with 24 samples.

Results

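House-dust mite (HDM) extract carries several kinds of molecules that innate cells recognise, and the receptors for them form the gene group described here. The group comprised 9 genes, chosen by name from the 23891 genes of the table: *Tlr4*, *Ly96*, *Cd14*, *Tlr2*, *Tlr5*, *Myd88*, *Clec7a*, *Clec4n* and *F2rl1*. RNA-Seq had been performed on the left lung lobe of 24 C57BL/6 mice. The naïve adult group comprised 5 mice that were 20 wk old. Naïve aged mice (n = 5), which received saline, were 80 wk old. The 7 mice of the HDM group were 80 wk old and received HDM at 50 µg per dose. The 7 mice of the HDM + Dex group, also 80 wk old, received the same HDM and the synthetic glucocorticoid dexamethasone (Dex) at 4 mg/kg every 72 h by intraperitoneal injection. The challenged mice were killed for lung harvest 24 h after their final HDM dose. No adult mice were challenged among these samples.

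Toll-like receptors are membrane proteins that bind conserved microbial molecules and pass the signal through adaptors such as MyD88 to NF-kB, which switches on cytokine genes. Lipopolysaccharide (LPS), a frequent companion of mite extract, is handed by CD14 to the complex of TLR4 and its co-receptor encoded by *Ly96*, and a mite allergen that resembles the *Ly96* product can act on the same complex. C-type lectin receptors of myeloid cells bind glycans of mites and fungi, and the protease-activated receptor encoded by *F2rl1* is cut by mite proteases, mainly on epithelial cells.

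Values are CPM, the counts of a gene scaled to the same total in every sample. Depth, estimated from the spacing of low values, was between 10.05 and 33.1 M reads per lung, and the detection floor of 3 reads corresponded to 0.0907 to 0.299 CPM. Differences were tested with limma on log2(CPM + 1), with Benjamini-Hochberg adjustment over the 17744 genes that had a mean of at least 1 CPM, and 8 of the 9 genes reached that mean. A gene was called when its adjusted p was below 0.05. In counts of listed genes, rose and fell mean called higher and called lower. A pair of library measures touches these results. The RNA of the signal recognition particle (7SL RNA, *Rn7s1* and *Rn7s2*) took from 9.92% to 42.0% of the CPM, with a median of 10.9% in naïve aged and 28.1% in HDM mice, and over all genes tested the median log2 fold change in HDM vs. saline was -0.23. All fold changes were therefore also computed after median-of-ratios rescaling, which brought that median to -0.01. Sex, read from *Xist* and *Ddx3y*, was female in all 5 naïve adult mice, in 2 of 5 naïve aged, in 2 of 7 HDM and in 4 of 7 HDM + Dex mice. In such whole-lung RNA, more cells of a type cannot be told apart from more RNA per cell.

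The sequences just upstream of 3 of the genes are shown because *Clec7a* and *Tlr5* moved in opposite directions and *Tlr2* varied most between mice of one group. They were taken from RefSeq promoters on GRCm38.p6, in which 4 of the 9 genes were found, *Clec7a*, *Tlr2*, *Tlr5* and *Myd88*, and each is written on the strand of its gene. For *Clec7a* (chr6:129472780-129473029, minus strand) and *Tlr5* (chr1:182954538-182954787, plus strand) these are the 250 bases before the start, and for *Tlr2* (chr3:83841769-83841858, minus strand) the 90 bases before the first base of the gene as the table has it. Capitals mark matches to the PU.1 core (GAGGAA) or to the kappa-B consensus.

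Clec7a: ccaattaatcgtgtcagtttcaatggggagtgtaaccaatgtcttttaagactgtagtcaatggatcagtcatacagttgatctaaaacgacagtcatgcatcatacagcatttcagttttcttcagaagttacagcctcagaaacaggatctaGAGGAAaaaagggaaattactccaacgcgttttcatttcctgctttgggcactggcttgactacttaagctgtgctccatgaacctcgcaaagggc

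Tlr5: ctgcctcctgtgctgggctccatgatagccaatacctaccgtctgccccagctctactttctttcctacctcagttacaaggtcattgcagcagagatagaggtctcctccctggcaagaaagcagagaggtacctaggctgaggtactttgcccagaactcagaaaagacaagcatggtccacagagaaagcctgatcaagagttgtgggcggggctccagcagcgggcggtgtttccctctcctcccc

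Tlr2: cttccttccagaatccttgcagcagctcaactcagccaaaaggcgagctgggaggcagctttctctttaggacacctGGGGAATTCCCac

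On both strands of the 250 bases, the PU.1 core occurred once in *Clec7a* and in 23.3% of all 32851 promoters of the same length. The kappa-B consensus matched *Tlr2* in 2 registers shifted by 1 base, one of them also read on the other strand, and it occurred in 7.25% of all promoters. No match to either was found in *Tlr5* or *Myd88*. The AP-1 letters TGANTCA (6.75% of promoters) and the glucocorticoid half-site letters AGAACA (16.1% of promoters) were found in none of the 4 genes. A match is a description of letters in this window only.

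Per kb of exon, the naïve aged lung contained most *Myd88* (16.4 ± 2.55 CPM per kb, SD, n = 5), followed by *Cd14* (13.9 ± 3.70) and *Clec7a* (13.4 ± 3.59). The values of these 3 genes overlapped between mice. A middle group whose neighbours overlapped consisted of *Tlr2* (5.27 ± 1.01 CPM per kb), *F2rl1* (4.19 ± 0.518), *Clec4n* (4.18 ± 1.26) and *Tlr4* (3.96 ± 0.618), and all 5 values of *Clec7a* lay above those of *Tlr2*. *Tlr5* (1.78 ± 0.317 CPM per kb) and *Ly96* (0.867 ± 0.341) stood below, each without overlap with the gene above it. The order was nearly the same in naïve adult mice, except that *Tlr4* stood above *Clec4n*. In HDM mice *Clec7a* came first (47.5 ± 18.3 CPM per kb, n = 7), ahead of *Cd14* (30.8 ± 19.2) and *Myd88* (18.6 ± 4.59), although neighbours overlapped. *Tlr5* was last there (0.748 ± 0.197 CPM per kb), and its values overlapped with those of *Ly96* (0.953 ± 0.507). The same 3 genes led in HDM + Dex mice, where *Clec7a* had 25.1 ± 11.1 CPM per kb.

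**Figure D1:**
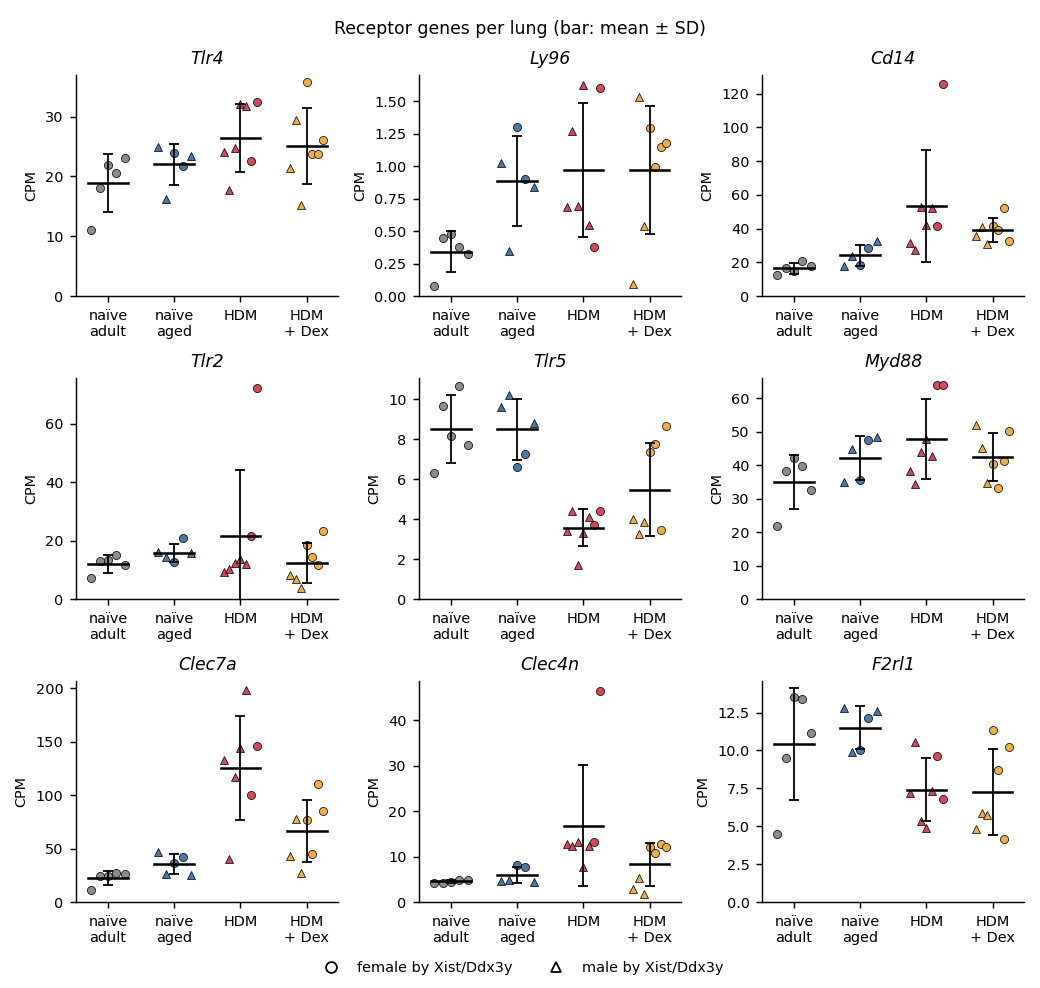
CPM of the 9 genes (vertical axes, from 0) in each of the 24 lungs by group. Each point is 1 mouse (circles female, triangles male by *Xist* and *Ddx3y*), and bars give mean ± SD, with the lower end for *Tlr2* in HDM mice lying below 0. *Clec7a* is high in HDM mice, *Tlr5* is low in all 7 of them, and 1 HDM mouse stands far above the others for *Tlr2*, *Cd14* and *Clec4n*.

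To ask how HDM changed these receptors in the aged lung, HDM and naïve aged mice were compared. *Clec7a*, *Clec4n* and *Cd14* were higher in HDM mice, and *Tlr5* and *F2rl1* were lower. The 3 called higher are 3 of 8 tested, where 4.04% of all genes were called higher, and the 2 called lower stand beside 21.2% of all genes called lower. After rescaling, 4 of the 8 genes were higher, *Tlr4* being added, and 1 was lower, since *F2rl1* no longer passed. All genes split into 717 higher and 3765 lower as deposited and into 1930 higher (10.9%) and 2058 lower (11.6%) after rescaling. The median log2 fold change was 0.20 for the 8 receptor genes and -0.23 for all genes, and after rescaling it was 0.44 and -0.01.

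*Clec7a* encodes Dectin-1, the receptor for beta-glucans of fungal walls. Its CPM in the naïve aged mice was 47.0, 26.2, 36.9, 41.7 and 25.5. In HDM mice the lowest was 40.5, the median 133 and the highest 198. A single HDM mouse, the lowest, lay within the range of the naïve aged mice, and the other 6 lay above it. Its log2 fold change in HDM vs. saline was 1.71 (SE 0.329, adjusted p = 0.0013) and 1.96 after rescaling (SE 0.332, adjusted p = 0.00067), where the groups no longer overlapped, as for 3.68% of all genes in that direction. It was called in all 25 other settings tried, in which it ran from 1.56 to 1.975. The table lists *Clec7a* as a polymorphic pseudogene, as GENCODE vM21 does, at chr6:129461591-129472779 (GRCm38, minus strand), and *Clec4n* lies on the same chromosome at chr6:123229843-123247021 (plus strand).

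*Clec4n* encodes Dectin-2, which binds mannose-rich glycans of mites and moulds and signals through the gamma chain encoded by *Fcer1g*. The naïve aged mice had 4.66, 4.90, 8.07, 7.69 and 4.35 CPM. HDM mice ran from 7.70 through a median of 12.7 to 46.5 CPM. One HDM mouse fell between the naïve aged values, 5 lay close together above them and 1 stood apart at the top. The difference was a log2 fold change of 1.18 (SE 0.395, adjusted p = 0.032), and it was 1.402 after rescaling (adjusted p = 0.0086). Without the HDM mouse at 46.5 CPM it was 0.91 (adjusted p = 0.053), and the call was also lost without naïve aged replicate 1 (adjusted p = 0.077), 2 (0.058) or 5 (0.075).

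*Cd14* encodes the carrier that passes LPS to TLR4. It had 17.8, 23.5, 18.2, 28.3 and 32.6 CPM in the naïve aged mice. In HDM mice the lowest value was 27.6, the median 42.3 and the highest 126 CPM. The lower end of the HDM range overlapped with the upper end of the naïve aged range, in 3 of the 35 pairs of mice. This gave a log2 fold change of 0.98 (SE 0.257, adjusted p = 0.0090), and leaving out any mouse kept it between 0.75 and 1.11 with an adjusted p of at most 0.033. On the rescaled values the groups did not overlap, as for 3.68% of all genes in that direction, and the log2 fold change was 1.23 (adjusted p = 0.0022).

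*Tlr5* encodes the receptor for bacterial flagellin and lies at chr1:182954788-182976044 (GRCm38, plus strand). It was the one member tested whose groups did not overlap as deposited. The naïve aged mice had 9.60, 10.2, 6.62, 7.29 and 8.81 CPM. The HDM mice had a lowest value of 1.69, a median of 3.72 and a highest value of 4.42 CPM. Every HDM mouse lay below every naïve aged mouse, in the deposited and in the rescaled values. Of all genes tested, 7.69% had HDM values entirely below and 1.03% entirely above the naïve aged values as deposited, and 4.15% and 3.68% after rescaling. It fell with a log2 fold change of -1.07 (SE 0.228, adjusted p = 0.0024), or -0.86 after rescaling (SE 0.186, adjusted p = 0.0030).

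*F2rl1* (chr13:95511732-95525227, minus strand) encodes the protease-activated receptor cut by trypsin-like and mite proteases. Its values in the naïve aged mice were 12.8, 9.87, 10.1, 12.2 and 12.6 CPM, against a lowest of 4.89, a median of 7.19 and a highest of 10.6 CPM in HDM mice. The ranges overlapped in the topmost HDM mouse. The log2 fold change was -0.60 (SE 0.216, adjusted p = 0.045). After rescaling it was -0.37 (adjusted p = 0.12), and the call was lost when any 1 of 9 of the 12 mice was left out, with an adjusted p of up to 0.10.

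The signalling receptor *Tlr4* itself (chr4:66827584-66930284, plus strand) had 24.9, 16.2, 23.8, 21.7 and 23.4 CPM in the naïve aged mice. In HDM mice it ran from 17.7 through 24.7 to 32.4 CPM, a range that covered most of the naïve aged one. Its log2 fold change was 0.24 (95% interval -0.13 to 0.62, adjusted p = 0.33). After rescaling it was 0.49 (SE 0.165, adjusted p = 0.038), which brought the gene past the threshold. *Cd14* and *Tlr4* were therefore also set against each other within each lung, where the scaling of the library drops out. The ratio of *Cd14* to *Tlr4* CPM ran from 0.714 to 1.45 in naïve aged and from 1.30 to 3.88 in HDM mice.

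*Myd88*, the adaptor shared by most Toll-like receptors and the IL-1 receptors, had 35.0, 44.8, 35.4, 47.6 and 48.4 CPM in naïve aged mice. HDM mice ran from 34.2 through 44.0 to 64.0 CPM, a range that covered the whole naïve aged one. Above the naïve aged values lay 2 HDM mice, at 63.8 and 64.0 CPM. The log2 fold change was 0.15 (95% interval -0.18 to 0.49, adjusted p = 0.50), and after rescaling it was 0.40 with an adjusted p of 0.0501. The end of *Myd88* (chr9:119335934-119341411, minus strand) overlaps with *Acaa1a* on the other strand, and *Myd88* lies within the bounds of *Slc22a14*. How the counting used strand is not given in the sources used here, so a share of these reads is uncertain.

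*Tlr2* (chr3:83836272-83841767, minus strand), the receptor for bacterial lipoproteins and other ligands, had 15.99, 14.4, 12.6, 20.8 and 15.7 CPM in the naïve aged mice. In HDM mice the lowest value was 9.24, the median 12.3 and the highest 72.2 CPM. Of the HDM mice, 5 lay below the naïve aged median, and 1 stood more than 3 times above every other lung. The mean was thus higher in HDM (21.6 ± 22.7 CPM, SD, n = 7) than in naïve aged mice (15.9 ± 3.04, n = 5) while the median was lower. The log2 fold change was 0.06 (95% interval -0.77 to 0.89, adjusted p = 0.92), and without that mouse it was -0.28 (adjusted p = 0.50).

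*Ly96* (chr1:16688051-16709611, plus strand), the LPS-binding partner of TLR4, was near the floor. It had 1.02, 0.350, 1.31, 0.905 and 0.841 CPM in naïve aged mice, and from 0.380 through 0.696 to 1.63 CPM in HDM mice. The estimated reads per lung ran from 1 to 53, with a median of 14.5, and 2 of the 24 lungs had fewer than 3 reads. With a mean of 0.822 CPM over all lungs it was not among the genes tested. In a fit without the filter its log2 fold change in HDM vs. saline was 0.05 (adjusted p = 0.90), with a 95% interval from -0.39 to 0.48.

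**Figure D2:**
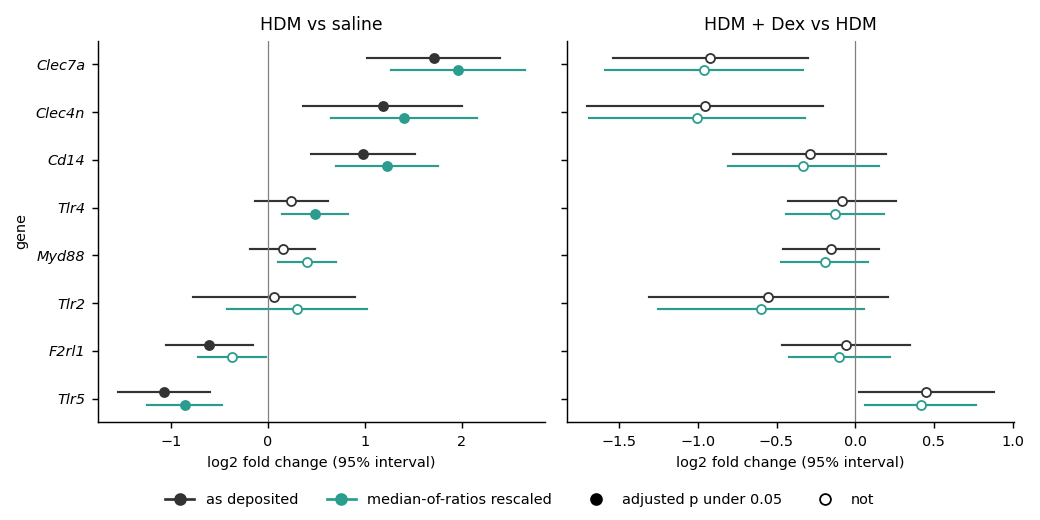
Log2 fold changes of the 8 tested genes (horizontal axis, 95% interval as a line) in HDM vs. saline (left) and in HDM + Dex vs. HDM (right), as deposited and after rescaling. Filled points have an adjusted p under 0.05: *Clec7a*, *Clec4n*, *Cd14* and *Tlr5* are filled on both scales on the left, *Tlr4* and *F2rl1* on 1 scale each, and none is filled on the right.

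The next comparison asked which of these genes differed when Dex was given with HDM. None of the 8 genes tested was called in HDM + Dex vs. HDM with limma, as deposited or rescaled, and 3 of 8 (*Clec7a*, *Clec4n* and *Tlr5*) had an unadjusted p under 0.05 on each scale. Of all genes, 0.75% were called higher and 0.214% lower as deposited, and 1.98% higher and 0.862% lower after rescaling. These shares use the adjusted p, and the share of all genes with an unadjusted p under 0.05 is not given here. The 2 lectin receptors had the largest negative values of the group. *Clec7a* had a lowest value of 26.9, a median of 76.5 and a highest value of 111 CPM in HDM + Dex mice, and the mouse with Dex was the higher one in 7 of the 49 pairs. Its log2 fold change was -0.92 (95% interval -1.54 to -0.30, adjusted p = 0.14). Without HDM replicate 2, the mouse at 40.5 CPM, it was -1.17 (adjusted p = 0.021).

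*Clec4n* in HDM + Dex mice ran from 1.85 through a median of 10.9 to 12.8 CPM. The 7 values formed a low set of 3 and a high set of 4, which were also the 3 male and the 4 female mice. The log2 fold change from HDM was -0.95 (95% interval -1.70 to -0.21, adjusted p = 0.22). With sex as a covariate it was -1.29 (SE 0.237, adjusted p = 0.021), the one receptor gene called lower in that fit, in which 0.924% of all genes were called lower. With sex and rescaling together it was -1.28 (adjusted p = 0.014). Among males, HDM mice had 7.70 to 13.1 CPM (n = 5) and HDM + Dex mice 1.85 to 5.37 CPM (n = 3). Among females, the 2 HDM mice had 13.2 and 46.5 CPM and the 4 HDM + Dex mice 10.9 to 12.8 CPM. The groups thus did not overlap within either sex as deposited, though only narrowly among the females (13.2 against 12.8 CPM). After rescaling they overlapped among the females (11.3 and 40.3 against 9.90 to 14.8 CPM). With so few mice per sex, and no share of all genes given for it, this is a description only.

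*Tlr5* in HDM + Dex mice ran from 3.28 through 3.99 to 8.66 CPM. Of these mice, 3 lay within the range of the naïve aged group and the other 4 within that of the HDM group, with nothing between 3.99 and 7.36 CPM. The log2 fold change from HDM was 0.45 (95% interval 0.02 to 0.88, adjusted p = 0.33). The 3 high mice were female and the 3 male mice had 3.28 to 3.99 CPM, but 1 female mouse was low as well, at 3.45 CPM. That low female mouse had a 7SL share of 30.2%, and the 7SL share of the males was 26.8% to 31.6%. The part of either in this split was not tested.

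The intervals of the other genes included 0. *Cd14* ran from 30.7 through 39.4 to 52.1 CPM in HDM + Dex mice (log2 fold change -0.29, 95% interval -0.78 to 0.20). *Tlr2* ran from 3.94 through 11.6 to 23.3 CPM (-0.55, -1.31 to 0.21). *F2rl1* ran from 4.17 through 5.86 to 11.4 CPM, which covered the HDM range, and its log2 fold change was -0.06 (-0.47 to 0.35). *Tlr4* (15.3 through 23.8 to 35.8 CPM, log2 fold change -0.09) and *Myd88* (33.1 through 41.2 to 52.0 CPM, log2 fold change -0.15) had intervals from -0.43 to 0.26 and from -0.46 to 0.15. *Ly96* ran from 0.0929, 1 estimated read, to 1.54 CPM with a median of 1.15.

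Against saline, no receptor gene was called in HDM + Dex mice with limma, where 1.89% of all genes were called as deposited and 0.941% after rescaling. This comparison shares its mice with the other 2. As deposited, an unadjusted p under 0.05 was seen for 4 of the 8 genes, *Cd14*, *Clec7a*, *Tlr5* and *F2rl1*. The share of all genes under that unadjusted threshold is not given here. *Cd14* was higher in the mouse with HDM + Dex in 34 of 35 pairs, with a log2 fold change of 0.69 (95% interval 0.16 to 1.22, adjusted p = 0.15), and it was called when only these 2 groups were fitted (adjusted p = 0.039). *Clec7a* had a log2 fold change of 0.79 (0.11 to 1.47, adjusted p = 0.18). *F2rl1* had -0.66 (-1.11 to -0.21, adjusted p = 0.11). It was called with sex as a covariate (-0.70, adjusted p = 0.038), a limma fit in which 1929 of all 17744 genes were called. The share of all genes called when only the 2 groups were fitted is not given here. *Tlr5* had -0.62 (-1.09 to -0.15, adjusted p = 0.14) and *Clec4n* 0.23 (-0.59 to 1.05, adjusted p = 0.75).

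The remaining comparison was that of naïve aged with naïve adult mice, in which age and sex overlap because all the adult mice were female. None of the 8 genes was called with limma, beside 0.654% of all genes as deposited and 1.03% after rescaling. As deposited, 2 of 8 (*Cd14* and *Clec7a*) had an unadjusted p under 0.05, for which the share of all genes is not given here. *Clec7a* had 11.1, 24.4, 24.4, 26.7 and 25.97 CPM in adult mice, and only the aged values of 25.5 and 26.2 lay among them. Its log2 fold change was 0.65 (SE 0.251, adjusted p = 0.33). *Cd14* in adult mice had 12.3, 16.5, 15.1, 21.03 and 18.1 CPM, with a log2 fold change of 0.50 (adjusted p = 0.38). *Tlr5* had 6.30, 9.68, 8.19, 10.7 and 7.74 CPM in adult mice and nearly the same mean at both ages (8.51 CPM). As deposited, *Clec4n* was the most even gene in adult mice, with 4.28, 4.1997, 4.37, 4.92 and 4.84 CPM. After rescaling it was not (4.75 ± 1.34 CPM, SD, n = 5, against 34.9 ± 2.16 CPM for *Myd88*).

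The adult values of the others overlapped with the aged ones. *Tlr4* had 11.1, 18.0, 21.8, 20.6 and 23.1 CPM. *Myd88* had 21.9, 38.1, 42.3, 39.7 and 32.6 CPM, and *Tlr2* had 7.10, 13.0, 13.5, 15.1 and 11.6 CPM. In 8 of the 9 genes, all but *Clec4n*, the lowest adult value was that of the same lung, replicate 1, in which 42.0% of the CPM was 7SL RNA. *F2rl1* had 4.52, 9.54, 13.5, 13.4 and 11.1 CPM. *Ly96* had 0.0808, 0.445, 0.478, 0.379 and 0.323 CPM in adult mice, at most 9 estimated reads, and in a fit without the filter its log2 fold change with age was 0.48 (adjusted p = 0.24).

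Sex was next compared within the HDM-challenged mice, since *Tlr2* and *Clec4n* separated by it in the plot of CPM by mouse. Because these 2 genes prompted the comparison, their p-values below describe a separation already seen and are not a test of it. Among the HDM mice, *Tlr2* was 21.5 and 72.2 CPM in the 2 females and 9.24 to 13.7 CPM in the 5 males. Among the HDM + Dex mice it was 11.6 to 23.3 CPM in the 4 females and 3.94 to 8.16 CPM in the 3 males. The sexes did not overlap in either group, whereas in naïve aged mice the males (14.4 to 15.99 CPM) lay between the 2 females (12.6 and 20.8). For *Clec4n* the sexes were apart in naïve aged mice too, with 7.69 and 8.07 CPM in the 2 females and 4.35 to 4.90 CPM in the 3 males. That female minus male log2 difference was 0.66 (SE 0.368) and was not called. The share of all genes without overlap between the sexes is not given here. With so few mice per sex, these separations are a description only. Over both challenged groups the female minus male log2 difference was 1.504 for *Tlr2* (SE 0.232, adjusted p = 0.0024) and 1.36 for *Clec4n* (SE 0.228, adjusted p = 0.0045). On the deposited scale 34.3% of all genes were called between the sexes, but only 0.547% after rescaling, where *Tlr2* differed by 1.19 (adjusted p = 0.023) and *Clec4n* by 1.06 (adjusted p = 0.051). The 5 HDM males also had more 7SL RNA (27.1% to 34.0%) than the 2 females (14.96% and 15.4%). The difference between sexes in the effect of HDM was not called for any of the 8 genes (*Tlr2* 1.64, SE 0.507, adjusted p = 0.21), and 0 of 17744 genes passed that test with limma, whereas 2774 had an unadjusted p under 0.05. In that limma fit 2 of the 8 receptor genes had an unadjusted p under 0.05, *Tlr2* (0.0043, and 0.016 after rescaling) and *Myd88* (0.029, and 0.28 after rescaling). After rescaling, 1504 of all genes were under that unadjusted threshold. *Myd88* was 63.8 and 64.0 CPM in the 2 female HDM mice and 34.2 to 47.7 CPM in the 5 males, and after rescaling 54.5 and 55.5 against 38.04 to 54.3 CPM. For the sex difference of HDM + Dex vs. HDM, *Myd88* had -0.71 (limma, adjusted p = 0.79, unadjusted p = 0.013). After rescaling it had -0.58 (limma, unadjusted p = 0.042). The other 7 genes had unadjusted p-values above 0.05. Of all 17744 genes, 981 had an unadjusted p under 0.05 as deposited and 928 after rescaling, and 0 were called.

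The wider pathways were then described from lists of genes that exclude the 9 members, to be read beside the 4.04% of all genes called higher and the 21.2% called lower in HDM vs. saline (10.9% and 11.6% after rescaling). Of 8 other Toll-like receptors tested, 1 rose in HDM mice, *Tlr12*, a sensor of protozoan profilin, at 4.33 ± 1.76 CPM against 1.90 ± 0.775 CPM in naïve aged mice (log2 fold change 0.85, adjusted p = 0.026). None of 8 accessory proteins was called as deposited and 2 rose after rescaling. Of 17 signalling proteins, 2 rose and 3 fell as deposited, and 3 rose and 1 fell after rescaling, so that the share lower was no larger than that of all genes. The largest positive changes were in *Irf5*, a transcription factor of the interferon regulatory family (0.89, adjusted p = 0.0037), and *Ticam2*, the adaptor that links TLR4 to interferon signalling (0.84, adjusted p = 0.0051). The largest negative changes were in *Ikbkg*, the scaffold of the IkB kinase (-0.57, adjusted p = 0.019), and *Tab3*, an adaptor of the kinase TAK1 (-0.51, adjusted p = 0.041), and *Tab3* did not pass after rescaling.

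Among 11 inhibitors of Toll-like receptor signalling, 3 rose and 2 fell with HDM as deposited. The 2 that rose most were *Il1rn*, the IL-1 receptor antagonist, at 33.2 ± 16.6 against 7.09 ± 2.25 CPM (log2 fold change 1.94, adjusted p = 0.0012), and *Tnip3*, a partner of the NF-kB inhibitor A20, at 10.5 ± 3.76 against 2.01 ± 0.775 CPM (1.89, adjusted p = 0.00059). *Dusp1*, a phosphatase of MAP kinases, fell from 268 ± 101.5 to 126 ± 55.9 CPM (-1.21, adjusted p = 0.024) and *Nfkbia*, the inhibitor of NF-kB, fell from 170 ± 38.5 to 115 ± 28.7 CPM (-0.57, adjusted p = 0.025). Neither passed after rescaling, where 5 of 11 rose and none fell. *Il1rn* was the single gene of all 8 lists called in HDM + Dex vs. HDM, in which it fell to 9.87 ± 5.65 CPM (-1.60, adjusted p = 0.029).

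Lectin receptors other than the 2 members had 4 of 16 higher and 1 lower in HDM mice, and 6 higher and none lower after rescaling. *Clec4a3* (8.73 ± 3.15 against 2.49 ± 0.948 CPM, log2 fold change 1.45, adjusted p = 0.0016) and *Mgl2*, which binds galactose-type sugars (1.34, adjusted p = 0.0045), rose most. *Clec1b*, a receptor of platelets and megakaryocytes, fell (-0.63, adjusted p = 0.016), but not after rescaling. Of 15 signalling proteins downstream of lectin receptors, 6 rose (7 after rescaling) and none fell, led by *Fcer1g*, the chain that carries Dectin-2 signals (35.8 ± 14.7 against 15.4 ± 3.96 CPM, log2 fold change 1.10, adjusted p = 0.013), and *Prkcd*, the kinase that acts on CARD9 (0.87, adjusted p = 0.0014). Of the 2 other protease-activated receptors tested, *F2r*, the thrombin receptor, fell (-0.72, adjusted p = 0.0026). Of 17 NF-kB subunits and target cytokines, 5 rose as deposited and 10 after rescaling, and none fell. The largest were *Cxcl5*, which attracts neutrophils (1.52, adjusted p = 0.014), and *Ccl2*, which attracts monocytes (1.22, adjusted p = 0.029).

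**Figure D3:**
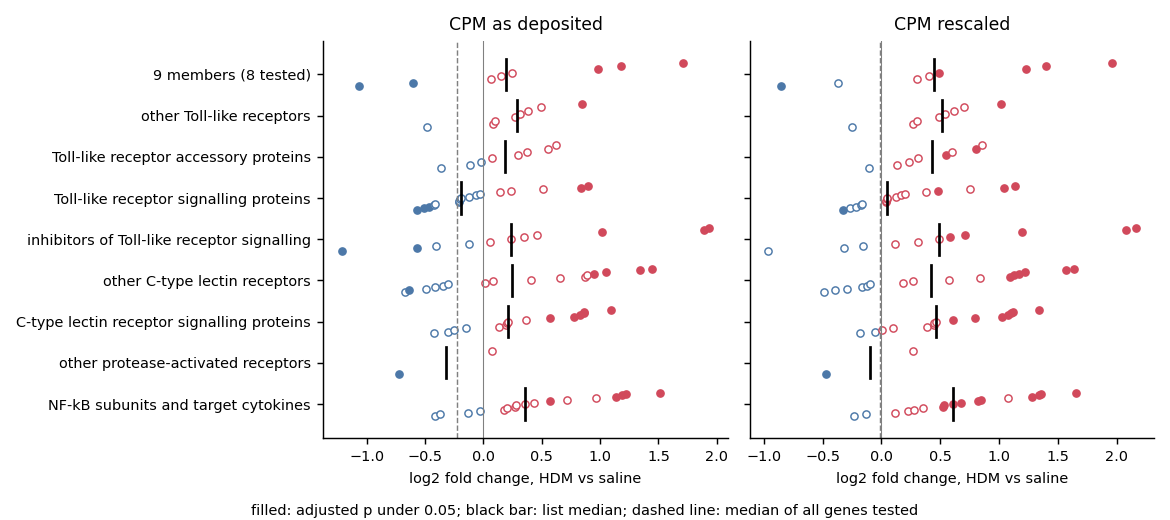
Log2 fold changes in HDM vs. saline (horizontal axes) of the genes in each list (rows), as deposited (left) and rescaled (right). Filled points have an adjusted p under 0.05, black bars are list medians and the dashed line is the median of all genes tested, at -0.23 and -0.01. Medians of the lists ran from -0.32, for the 2 other protease-activated receptors, to 0.36 as deposited.

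Marker genes of cell types were set beside these results, with 4.04% of all genes called higher and 21.2% lower in HDM vs. saline as deposited, and 10.9% higher and 11.6% lower after rescaling. Of 14 macrophage markers, 5 were called higher in HDM mice as deposited and 8 after rescaling, and none was called lower. As deposited, log2 fold changes were negative for *Krt79* (-1.30), *Ear1* (-1.11), *Marco* (-1.03), *Car4* (-0.58), *Lyz2* (-0.39) and *Siglecf* (-0.13), none called. They were positive for the other markers of the list. The summed level of all 14 ran from 2196 to 3285 CPM (median 2663) in naïve aged mice. It ran from 1473 to 5351 CPM (median 2006) in HDM mice and from 1111 to 4809 CPM in HDM + Dex mice. Most of this sum came from 1 marker, *Lyz2*, which was not called (mean 2362 CPM in naïve aged and 2008 CPM in HDM mice). As deposited, 1 of 8 monocyte markers, 2 of 9 dendritic cell markers and 1 of 5 pan-leukocyte markers were called higher. After rescaling 3, 2 and 3 of them were, and none was called lower. Negative values that were not called included those of *F13a1* (-0.68) and *Clec9a* (-0.42) as deposited. Airway epithelial markers fell in 6 of 8 (5 after rescaling). Their sum ran from 4981 to 7026 CPM in naïve aged, from 351 to 3346 CPM in HDM and from 872 to 5413 CPM in HDM + Dex mice. Endothelial markers fell in 5 of 5 as deposited and in 2 of 5 after rescaling, and 0 of 6 markers of type 2 alveolar cells were called. Neutrophil markers fell in 3 of 7 with HDM (2 after rescaling). In naïve aged vs. naïve adult mice, where 0.654% of all genes were called, 6 of 7 rose (5 after rescaling), with sums of 93.0 to 316 against 28.1 to 92.1 CPM. Of 3 eosinophil markers tested, 1 rose. Of the lung tissue list, *Scgb1a1* and *Pecam1*, which are also on lists above, fell. No marker was at 0 in all mice of a group, and the part of these cell types in the receptor results was not tested. The 4 lung markers together (*Sftpc*, *Ager*, *Scgb1a1* and *Pecam1*) reached 2300 CPM or more in every lung.

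Within groups, the receptors fell into pairs by how they varied from mouse to mouse. Correlations were computed over the 24 lungs after removal of group means from rescaled log2 values, as a description, since all values of a lung share its library. Sex was not removed, although *Tlr2* and *Clec4n* were both higher in challenged females. HDM replicate 7, far above its group for *Tlr2*, *Cd14* and *Clec4n*, was kept. The part of either in these correlations was not tested. *Clec7a* varied most like *Tlr4* among the other receptors (r = 0.77) and *Clec4n* most like *Tlr2* (r = 0.74), whereas the 2 lectin receptors had r = 0.35 with each other. *Cd14* was closest to *Myd88* (r = 0.53), and both were negatively related to *F2rl1* (r = -0.54 and -0.57). *Tlr5* was closest to *F2rl1* (r = 0.43). The macrophage score had r = 0.71 with *Tlr2*, 0.69 with *Clec4n* and 0.64 with *Clec7a*, and 0.26 with *Cd14* and 0.38 with *Tlr4*. It was the highest of the scores for *Tlr2* and *Clec4n*. *Clec7a* had its highest value with the leukocyte score (r = 0.72), *Tlr4* with the monocyte score (r = 0.62) and *Cd14* with the neutrophil score (r = 0.54). *Myd88* had its highest value with the neutrophil score (r = 0.62), *Tlr5* with the airway epithelium score (r = 0.45) and *F2rl1* with the lung tissue score (r = 0.62).

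Among all 17744 genes, the 3 most like *Clec7a* were *Ccl9* (r = 0.90), *Olr1* (0.89) and *Atp6ap2* (0.89), and *Atp6ap2* also led for *Tlr4* (0.88), before *Ptpn2* (0.88) and *Ggh* (0.85). *Tlr2* was most like *Tnf* (0.86), *Rassf4* (0.84) and *Pik3ap1* (0.84). *Rassf4* was also among the first 3 of *Clec4n* (0.77), after *Lgi2* (0.79) and *Aoah* (0.78), the last of which encodes an enzyme that inactivates LPS. *Cd14* was most like *Pfkl* (0.84), *Pkm* (0.84) and *Fth1* (0.82), of which the first 2 encode enzymes of glycolysis. *Myd88* was most like *Sbno2* (0.88), *Trim27* (0.82) and *Vps18* (0.81), *Tlr5* like *Fbxo10* (0.81), *Cbr1* (0.80) and *Ikbkg* (0.80), and *F2rl1* like *Elfn1* (0.76), *Abca8a* (0.75) and *Usp49* (0.72).

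**Figure D4:**
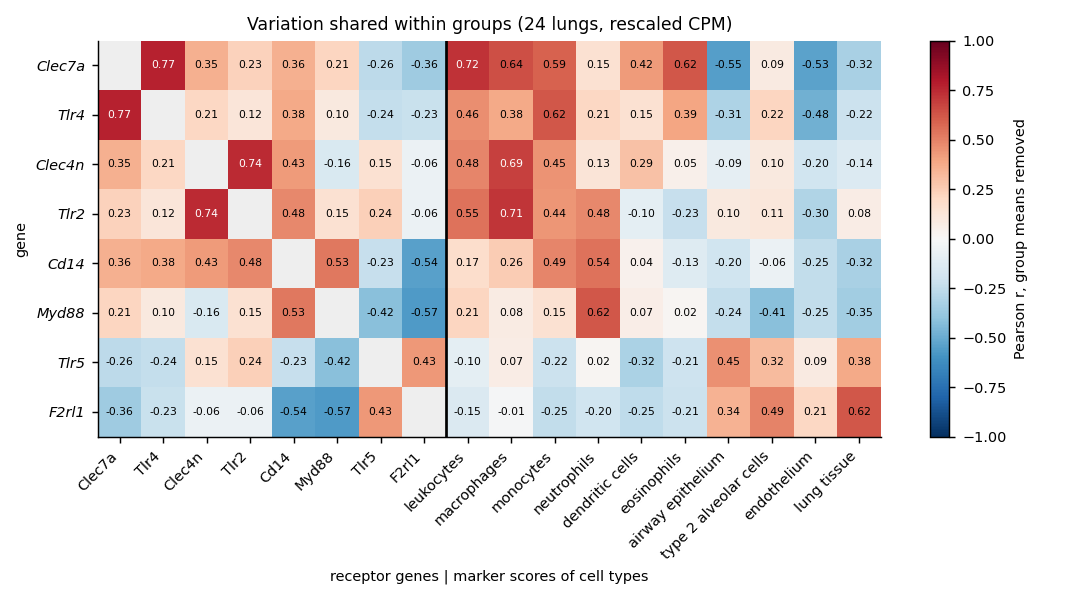
Pearson r over 24 lungs, after removal of group means, between the 8 tested receptor genes (rows) and the other receptors or the mean log2 score of cell-type markers (columns), from -1 (blue) to 1 (red). The *Clec7a* and *Tlr4* pair (0.77) and the *Clec4n* and *Tlr2* pair (0.74) are the highest among receptors.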

How the data were processed

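RNA-Seq was performed by the study on the left lung lobe of 24 mice, with stranded mRNA libraries and paired-end reads that the authors processed with the Picard-STAR-limma pipeline. The authors deposited 1 table of CPM, in which counts are scaled to the same total per sample and 0.0001 is added to every value. The submitters' notes name FastQC, STAR and the build mm9, but the coordinates in the table matched GRCm38 (23140 of 23276 symbols found in GENCODE vM21 had the same start). Strand use in counting is not given in the sources used here. The methods give fewer mice in the challenged groups than were deposited.

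Low values were whole multiples of the estimated spacing for only 80.6% to 85.6% per sample (tolerance 0.05), so reads were not recovered and no count model was fitted. Intervals and the floor of 3 reads cover counting error only where they rest on reads. Groups came from the labels. Linear models of log2(CPM + 1) were fitted in limma 3.58.1 (R 4.3.3), with a trend in eBayes, for genes whose mean reached 1 CPM. One fit held the 19 aged samples and another the 10 naïve samples. Fold changes are on the log2(CPM + 1) scale, which understates changes of low genes. Rescaling divided each sample by its median of ratios over 18541 genes. The labels do not tell cage or litter, so p-values measure the spread between these mice. The steps were tested on simulated data. Tables were handled with Python 3.11.15, numpy 2.4.6 and pandas 2.3.3, and plots with matplotlib 3.10.9.

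The members, gene lists and alternatives were chosen with earlier results of these data known. Named genes were the 9 members, up to 2 genes with the largest called change in each direction per pathway list for the effect of HDM, of Dex in HDM mice and of age, and the 3 genes most like each member. Alternatives were pseudocounts of 0.1 and 5, no filter or a filter of 5 CPM, rescaling, leaving out 7SL RNA, other sets of samples in the fit, no trend, quality weights, a replicate block, sex as a covariate and leaving out each mouse. Rescaling with sex, and the fit by sex, were added after seeing the data. A second deposited file held no measurements and was not used.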

Additional observations from a re-analysis of the deposited data

Results flagged for a closer look

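In 36 groups (9 genes in 4 groups), 5 held a mouse far from the others by Dixon's criterion, where chance flags about 1 group in 20, or 1.8 here. Of these 5, 3 were the same lung, HDM replicate 7, which had 72.2 CPM of *Tlr2*, 125.6 CPM of *Cd14* and 46.5 CPM of *Clec4n*, each more than 0.74 of the range above the next mouse. It was 1 of 2 female HDM mice and had the most reads of all lungs (33.1 M). HDM replicate 3, the lung with the fewest reads (10.05 M), had the lowest *Tlr5* (1.69 CPM). Naïve adult replicate 1, with 42.0% 7SL RNA, had the lowest *Clec7a* of its group (11.1 CPM). Without HDM replicate 7, the number of receptor genes called in HDM vs. saline went from 5 to 3, and the log2 fold change of *Tlr2* from 0.06 to -0.28.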

How the results depend on the processing

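*Clec7a*, *Cd14* and *Tlr5* kept their direction and their call in HDM vs. saline in all alternatives tried, and *Clec4n* lost its call with a replicate block (0.88, adjusted p = 0.064) and without 4 single mice. *F2rl1* lost its call with rescaling, with or without sex, 7SL RNA left out, no filter, all 24 samples in the fit and the block, and *Tlr4* gained one with rescaling (0.49, and 0.48 with sex) or 7SL RNA left out (0.48). The number of receptor genes called in HDM vs. saline was 5, and 3 with a replicate block, for which same-numbered mice did not deviate together (median r of deviations 0.0065 over 5 pairs; in none of the 4 comparisons were all pairs above 0.1). Leaving out 1 mouse gave 3 to 5, the 3 coming without HDM replicate 7 or naïve aged replicate 1 or 5. In HDM + Dex vs. HDM the number was 0, and 1 with sex as a covariate (*Clec4n*), with sex and rescaling (*Clec4n*) or with quality weights (*Clec7a*, -1.11), and 0 to 1 leaving out 1 mouse (*Clec7a* without HDM replicate 2). In HDM + Dex vs. saline it was 0, but 1 with only those groups in the fit (*Cd14*), 1 with sex (*F2rl1*), 3 with quality weights (*Cd14*, *F2rl1* and *Tlr5*) and 0 to 1 leaving out 1 mouse (*F2rl1* without HDM + Dex replicate 4). With age it was 0, and 1 with quality weights (*Clec7a*, 0.55). The calls over all genes moved with the setting as well. With sex as a covariate, 1929 of 17744 genes were called in HDM + Dex vs. saline and 293 in HDM + Dex vs. HDM. In the main fit these were 335 and 171. For quality weights, the block, other sets of samples and left-out mice the share of all genes is not given here.

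Directions turned only in values that were not called. *Tlr2* in HDM vs. saline was -0.29 with the block, -0.12 with quality weights and -0.28 to 0.19 leaving out 1 mouse. In HDM + Dex vs. HDM, leaving out 1 mouse gave -0.17 to 0.043 for *F2rl1* and -0.17 to 0.021 for *Tlr4*. In HDM + Dex vs. saline, the block gave -0.077 for *Clec4n* and -0.11 for *Myd88*, sex gave -0.028 for *Myd88*, and leaving out 1 mouse -0.063 to 0.055. With age, *Tlr5* was -0.14 without 7SL RNA, -0.19 rescaled, -0.45 rescaled with sex, -0.13 with quality weights, -0.24 with sex and -0.088 to 0.081 leaving out 1 mouse, and *F2rl1* was -0.057 rescaled with sex, -0.043 with quality weights and -0.041 to 0.31 leaving out 1 mouse. The causes were not tested. Of 792 values of single genes under alternatives, 728 kept direction and call. *Ly96*, with a median of 14.5 estimated reads per lung, was tested without the filter only.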

Other observations

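Outside HDM, 3 pathway genes rose with age in the naïve lung. *Clec4d*, a lectin receptor of myeloid cells, had 6.77 ± 3.65 CPM in naïve aged and 0.974 ± 0.755 CPM in naïve adult mice (SD, n = 5 each, log2 fold change 1.91, adjusted p = 0.0063 with limma). *Tlr13*, a mouse sensor of bacterial ribosomal RNA, had 13.4 ± 3.36 against 5.75 ± 1.31 CPM (1.09, adjusted p = 0.016). *Ccl20*, a chemokine for dendritic cells and lymphocytes, had 1.98 ± 0.895 against 0.0324 ± 0.0481 CPM (1.48, adjusted p = 0.0020). The adult mean of *Ccl20* lay below the floor of 3 reads, so that the size of its change depends on the pseudocount. All 3 genes were also called after rescaling, and 6 of 7 neutrophil markers tested rose in the same comparison. All naïve adult mice were female, so age and sex cannot be told apart.

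The ratio of *Clec7a* to *Tlr5* within each lung, chosen after their opposite directions were seen, is free of library scaling. It ran from 1.76 to 3.35 in naïve adult, from 2.56 to 5.72 in naïve aged, from 9.17 to 69.2 in HDM and from 5.76 to 32.1 in HDM + Dex mice. Every challenged lung, with or without Dex, thus lay above every naïve lung, by a small margin between 5.72 and 5.76. Because the 2 genes were picked for opposite changes in these same mice, this separation is a description and not a test. The ratio of *Myd88* to *Tlr4* had medians of 1.93, 2.07, 1.78 and 1.73 in the same order.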
